A study of Rattus norvegicus with 24 samples.

Results

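The genes described here encode enzymes that break down serine, glycine, histidine, tyrosine and ornithine in the liver. The list named 9 genes (Sds, Gldc, Hal, Uroc1, Oat, Tat, Hpd, Hgd and Fah). A gene was kept where the array's annotation pairs a probe set (the probes summarised to 1 value) with that symbol alone, which left 8 of the 9 among the 17245 genes measured. Each of the 8 had 1 probe set. The only probe set of Uroc1, urocanase, is also assigned to Zxdc, so Uroc1 has no value of its own.

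Liver RNA came from 24 male Wistar rats, 1 Affymetrix whole-transcript array per rat. The 4 groups, with 6 rats in each, were fed 5% protein for 4 weeks, 20% protein for 4 weeks, 5% protein for 1 week and 20% protein for 1 week. The labels give no age, no genetic change and no agent besides the diet. The sample descriptions carry the codes 4 and 18 where the titles give 5% and 20%, and the design text speaks of 4 weeks only, so the amounts and durations, taken from the titles, are not certain.

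The liver removes the amino acids that are not used to make protein, and many enzymes of this removal are more abundant when the diet is rich in protein and scarcer when it is poor. Serine dehydratase turns serine into pyruvate. Histidine passes through histidase and urocanase towards glutamate, tyrosine passes through an aminotransferase and a chain of oxidations to fumarate and acetoacetate, and ornithine aminotransferase joins ornithine to glutamate and proline. Hepatocytes near the portal vein hold most serine dehydratase and histidase, whereas ornithine aminotransferase marks those around the central vein.

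The median intensity of an array was 42.4 to 45.5, and the correlation between replicate arrays over all probe sets was 0.984 to 0.995. Levels are given as log2 of the RMA intensity (RMA is the authors' background correction, normalisation and summary over probes). No array marks a gene as detected or not, and probes of different genes are not comparable, so the level of a gene is compared only with its own level in other groups. Differences are 5% minus 20% protein with their standard errors (SE), from limma, and a gene was called where the Benjamini-Hochberg adjusted p over all genes was below 0.05. "Rose" and "fell" are used of called genes. In whole liver RNA, fewer cells of a type and less RNA per cell cannot be told apart.

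After 4 weeks, 6 of the 8 enzymes fell on 5% protein and none rose, though the call of Fah was lost with the run of animal numbers in the titles as a covariate. Serine dehydratase and ornithine aminotransferase fell most, by 9.38 and 8.66 times, followed by histidase at 3.11 times. Within each of the 4 week runs, which hold the diets unequally, the fold of ornithine aminotransferase was smaller, at 5.77 and 6.80 times. The fold of serine dehydratase is not firm, because its 5% values lie near the low end of the scale. The later tyrosine enzymes Hpd, Hgd and Fah fell by smaller amounts, while Tat, the first enzyme of that route, and Gldc of glycine breakdown did not pass the test. Over all genes, 12.4% were called lower and 13.4% higher in the same comparison. The enzymes and the gene lists below were chosen with earlier results of these data known, so such counts are descriptions. The median difference of the 8 genes was -0.65, against -0.01 over all genes.

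**Figure D1:**
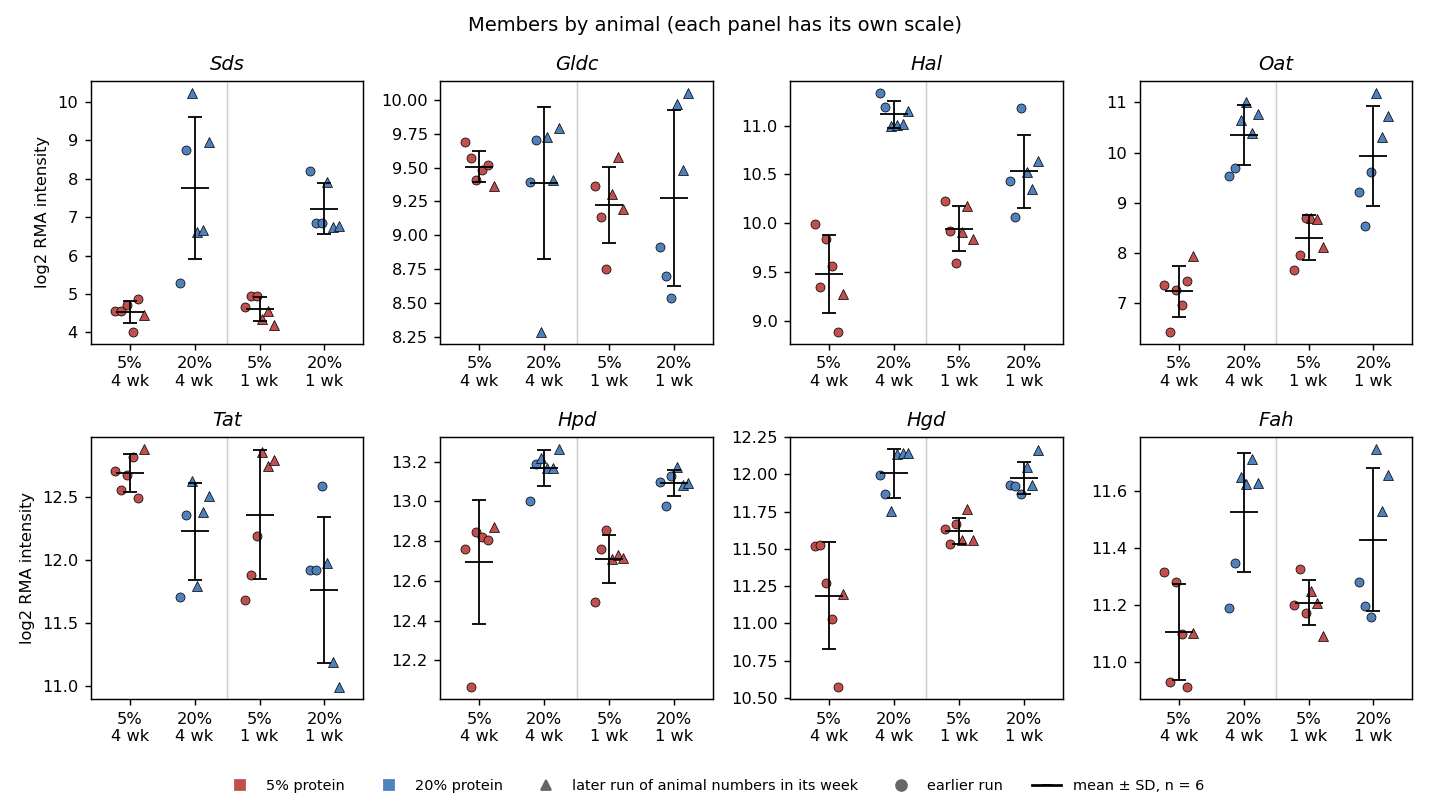
Log2 RMA intensity of the 8 enzymes in each of the 24 rats, in 4 groups of 6, each panel with its own scale. Points are rats (circles and triangles mark the earlier and later run of animal numbers in each week) and bars are the mean ± SD; Sds, Hal, Oat, Hpd and Hgd on 5% protein lie wholly below 20% protein at 4 weeks, whereas Tat and Gldc overlap.

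Serine dehydratase (Sds), which deaminates serine and threonine, ranged from 4.02 to 4.87 on the log2 scale (median 4.56) in rats on 5% protein for 4 weeks. In rats on 20% protein for 4 weeks it ranged from 5.30 to 10.23 (median 7.71). The groups did not overlap, and the 20% animals were widely spread. The fall was -3.23 ± 0.53 (SE, n = 6 per group; adjusted p = 6.46e-05). The 5% values lie near the low end of the scale, where intensity need not follow RNA, and 1 of the 20% animals (5.30) is below the array medians too, so the true fold cannot be bounded. With an offset of 16 added to the intensities before log2, the difference was -2.64.

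Glycine decarboxylase (Gldc), the P protein of the glycine cleavage system in mitochondria, ranged from 9.37 to 9.69 (median 9.50) on 5% protein for 4 weeks and from 8.29 to 9.79 (median 9.56) on 20%. The groups overlapped. The difference was 0.12 with a 95% interval of -0.38 to 0.62 (adjusted p = 0.781). One 20% animal stood at 8.29 with the next at 9.39.

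Histidase (Hal), the first and rate-limiting enzyme of histidine breakdown, ranged from 8.89 to 9.99 (median 9.45) on 5% protein for 4 weeks. On 20% protein it ranged from 10.99 to 11.34 (median 11.09). The groups were a whole log2 unit apart at their nearest animals, and the fall was -1.64 ± 0.17 (adjusted p = 1.04e-07).

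Ornithine aminotransferase (Oat), a mitochondrial enzyme, ranged from 6.42 to 7.94 (median 7.30) on 5% protein for 4 weeks. On 20% protein its range was 9.54 to 11.01 (median 10.52). Every 5% animal was below every 20% animal, and the fall was -3.11 ± 0.36 (adjusted p = 6.39e-07). Within the runs of animal numbers described below the difference was smaller, at -2.53 in the first and -2.77 in the third. These runs hold the diets unequally, with 1 rat on 5% protein in the third.

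Tyrosine aminotransferase (Tat), which makes 4-hydroxyphenylpyruvate and is a textbook target of glucocorticoids and glucagon, ranged from 12.49 to 12.89 (median 12.69) on 5% protein for 4 weeks. On 20% protein it ranged from 11.71 to 12.63 (median 12.37). The groups overlapped, and the difference was 0.46 with a 95% interval of -0.02 to 0.95 (adjusted p = 0.165). In a fit of these groups alone it was called higher (adjusted p = 0.0386).

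4-hydroxyphenylpyruvate dioxygenase (Hpd), which acts on the product of Tat, ranged from 12.06 to 12.87 (median 12.81) on 5% protein for 4 weeks and from 13.00 to 13.27 (median 13.18) on 20%. The groups did not overlap, and the fall was -0.47 ± 0.10 (adjusted p = 0.000985). Homogentisate dioxygenase (Hgd), the next enzyme, ranged from 10.57 to 11.53 (median 11.24) on 5% and from 11.76 to 12.15 (median 12.07) on 20%. Again no animals overlapped, with a fall of -0.82 ± 0.12 (adjusted p = 1.2e-05). Fumarylacetoacetase (Fah), the last enzyme, ranged from 10.91 to 11.32 (median 11.10) on 5% and from 11.19 to 11.71 (median 11.63) on 20%. Its groups overlapped, and the fall was -0.42 ± 0.11 (adjusted p = 0.00451). With the run of animal numbers as a covariate, the difference of Fah was -0.30 and was not called (adjusted p = 0.0529).

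The non-overlap of Sds, Hal, Oat, Hpd and Hgd makes 5 of 8 genes, against 5.88% of all genes with every 5% animal below every 20% animal at 4 weeks.

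Oat and Tat are shown by their start regions because Oat fell at both times and Tat, in the same livers, was not called at either. The sequences are RefSeq's on GRCr8, from 250 bases before to 50 after the annotated start, read 5′ to 3′ along the gene. Oat lies at chr1:196797705-196798004 on the minus strand and Tat at chr19:54856354-54856653 on the plus strand. Capitals mark matches on either strand of the motifs named after them.
Oat: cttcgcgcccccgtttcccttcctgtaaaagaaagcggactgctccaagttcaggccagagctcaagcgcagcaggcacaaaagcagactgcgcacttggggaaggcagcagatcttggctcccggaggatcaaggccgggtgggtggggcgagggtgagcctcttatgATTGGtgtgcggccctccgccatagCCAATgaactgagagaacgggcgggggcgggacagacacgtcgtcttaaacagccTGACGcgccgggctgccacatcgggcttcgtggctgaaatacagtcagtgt
Tat: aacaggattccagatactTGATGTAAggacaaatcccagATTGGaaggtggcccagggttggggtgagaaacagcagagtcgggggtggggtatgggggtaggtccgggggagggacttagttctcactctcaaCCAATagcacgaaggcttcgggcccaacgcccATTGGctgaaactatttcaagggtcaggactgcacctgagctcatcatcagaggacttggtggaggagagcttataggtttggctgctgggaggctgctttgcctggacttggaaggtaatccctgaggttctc

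The motifs searched on both strands were CCAAT (read as ATTGG on the other strand), which is in both windows, TGACG, the core of the cyclic AMP response element, which is in that of Oat, and TGATGNAA, the C/EBP-ATF response element, which is in that of Tat. Of 33469 windows of the same length, 37.5% hold CCAAT, 21.2% TGACG and 3.98% TGATGNAA. Among the 9 listed genes 7 had a window. CCAAT was also in those of Gldc, Hgd and Uroc1, and GTTAAT, an HNF1 element found in 7.45% of windows, in that of Hpd. The other 9 of 13 motifs searched were not in these windows, and 0.0448% to 20.7% of all windows hold them. They were the full cyclic AMP response element TGACGTCA (which contains TGACG), the C/EBP forms TTGCNNCAA and, with another end, TTGCNNAAT, the full HNF1 motif (which contains GTTAAT), the glucocorticoid element core TGTTCT, the HNF4 motif CAAAGTCCA, the TATA box TATAAA, the FOXA motif TGTTTGC and the FOXO motif TGTTTAC. A match says only that these letters are present.

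After 1 week, 4 of the 8 enzymes fell and none rose, against 2.44% of all genes called lower and 1.86% higher. These were Sds, Hal, Oat and Hpd, all of which also fell at 4 weeks. The calls of Hal and Hpd at 1 week were lost in several of the other fits described below. The median difference of the 8 was -0.37, against -0.01 over all genes. The diets did not overlap for Sds, Hpd and Hgd, and 1.36% of all genes were wholly lower on 5% protein at this time.

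Sds ranged from 4.19 to 4.95 (median 4.60) on 5% protein for 1 week and from 6.75 to 8.20 (median 6.84) on 20%. Its groups were well apart, with a fall of -2.61 ± 0.53, or 6.12-fold lower (adjusted p = 0.00527). With the offset of 16 this was -2.04. The 5% values lie near the low end of the scale here too, so this fold cannot be bounded either. Oat ranged from 7.66 to 8.70 (median 8.39) on 5% and from 8.53 to 11.19 (median 9.97) on 20%. Its groups overlapped at the edge, and the fall was -1.63 ± 0.36, or 3.11-fold lower (adjusted p = 0.00874).

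Hal ranged from 9.59 to 10.23 (median 9.92) on 5% protein for 1 week and from 10.07 to 11.18 (median 10.48) on 20%. The overlap was small, and the fall was -0.59 ± 0.17 (adjusted p = 0.0426). Hpd ranged from 12.49 to 12.85 (median 12.72) on 5% and from 12.98 to 13.17 (median 13.09) on 20%. It did not overlap, and the fall was -0.38 ± 0.10 (adjusted p = 0.0301). The calls of Hal and Hpd at 1 week were lost with quantile normalisation (adjusted p = 0.0895 and 0.0877) and within either run of animals alone. They were also lost when the letter of the code in each title, read as a well row, entered as a random block (adjusted p = 0.138 and 0.0862). The labels do not say what this code stands for. The call of Hal was also lost with centred array medians (adjusted p = 0.06) and with only the groups compared (adjusted p = 0.0674). Leaving out 1 animal at a time took the call of Hal in 11 of 24 fits (adjusted p = 0.0501 to 0.099; animals 31, 50, 51, 53, 54, 72, 73, 74, 76, 77 and 79) and that of Hpd in 7 (adjusted p = 0.0512 to 0.0798; animals 49, 51, 53, 74, 76, 77 and 79).

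The other 4 enzymes were not called at 1 week. Hgd ranged from 11.53 to 11.77 (median 11.60) on 5% protein and from 11.87 to 12.16 (median 11.93) on 20%. The diets did not overlap, but the difference of -0.36 ± 0.12 missed the threshold (adjusted p = 0.0878); in a fit of these groups alone it was called (adjusted p = 0.0156). Fah ranged from 11.09 to 11.33 (median 11.20) on 5% and from 11.16 to 11.75 (median 11.41) on 20%, a difference of -0.22 ± 0.11 (adjusted p = 0.28). Tat ranged from 11.68 to 12.86 (median 12.47) on 5% and from 10.99 to 12.58 (median 11.92) on 20%, a difference of 0.60 ± 0.24 (adjusted p = 0.167). Gldc ranged from 8.75 to 9.58 (median 9.25) on 5% and from 8.54 to 10.05 (median 9.20) on 20%, a difference of -0.05 ± 0.24 (adjusted p = 0.954). These 3 genes overlapped widely, and Tat and Gldc had the widest spread among them on 20% protein.

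**Figure D2:**
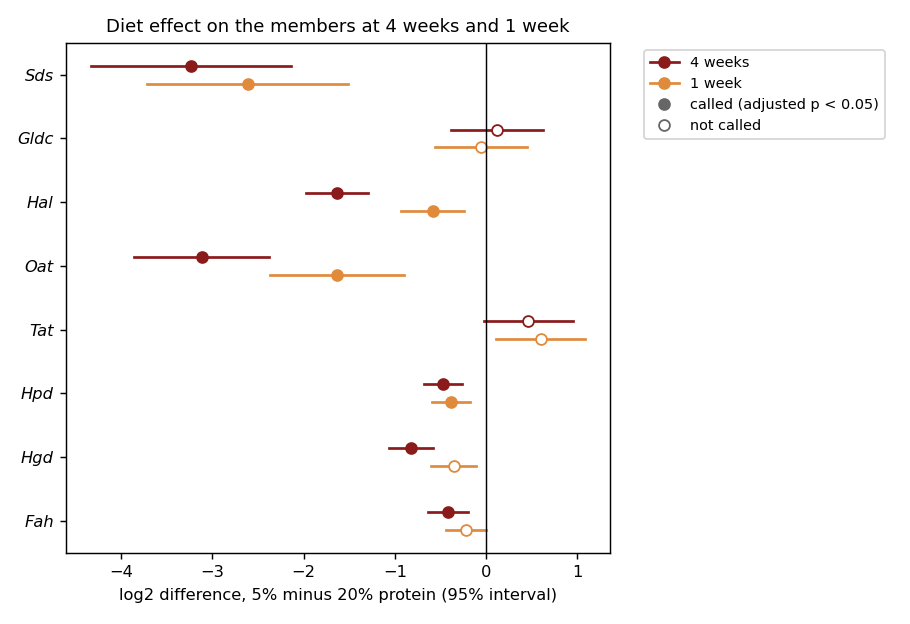
Difference of 5% minus 20% protein on the log2 scale for each enzyme at 4 weeks and 1 week, with 95% intervals. Filled points are called (adjusted p below 0.05); Sds and Oat lie furthest to the left at both times, and Tat lies right of 0.

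The effect of diet was tested for a difference between the times. For Hal alone among the 8 it was called larger at 4 weeks than at 1 week, with a difference of -1.05 ± 0.23 (adjusted p = 0.0125), where 2.2% of all genes were called lower. Oat had a difference of effects of -1.48 ± 0.51 (adjusted p = 0.0815) and Hgd of -0.46 ± 0.17 (adjusted p = 0.0985), neither called. For Sds the difference of effects was -0.62 with a 95% interval of -2.17 to 0.94. Tat (-0.14), Hpd (-0.09), Fah (-0.20) and Gldc (0.17) had differences of effects that were not called either.

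On 5% protein the level of Hal at 4 weeks minus that at 1 week was -0.46 ± 0.17 (adjusted p = 0.0854), and on 20% protein it was 0.59 ± 0.17 (adjusted p = 0.0598). Neither time difference was called. On 5% protein only Hgd was called between the times, at -0.43 ± 0.12 (adjusted p = 0.0238), against 4.13% of all genes called lower at 4 weeks. That call was lost when either of 2 animals on 5% protein for 4 weeks was left out, animal 31 (adjusted p = 0.0582) or animal 32 (adjusted p = 0.0562), with the run as a covariate (adjusted p = 0.0624) and with only the groups compared (adjusted p = 0.0685). Oat on 5% protein was at -1.07 ± 0.36 (adjusted p = 0.0635) and was called with only the groups compared (adjusted p = 0.0177). On 20% protein limma called 0 of the 8 between the times, with 1 at an unadjusted p below 0.05, and 2.52% of all genes called. The diet and time comparisons share animals.

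The animal numbers in the titles form 4 runs. Rats 49 to 54 (the second run) and 74 to 79 (the fourth) make up the 1 week groups, with 3 rats per diet in each run. The 4 week rats are 22 to 32 (the first run, 5 on 5% and 2 on 20% protein) and 59 to 73 (the third, 1 and 4). The labels do not say what a run is. Within the fourth run, Oat (-2.25 ± 0.30), Sds (-2.78 ± 0.77) and Fah (-0.46 ± 0.10) fell and Tat rose (1.42 ± 0.24), against 4.45% of all genes called lower and 4.04% higher. Within the second run, only Oat was called, at -1.02 ± 0.30 (4.71% of all genes called lower), and Sds was at -2.45 ± 0.77 (adjusted p = 0.0576).

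Tat was the 1 gene of the 8 whose diet effect was called different between these runs. In the fourth run it was at 12.86, 12.74 and 12.80 on 5% protein, against 11.97, 11.19 and 10.99 on 20%. In the second run it was at 11.68, 11.88 and 12.19 on 5% protein, against 11.92, 11.92 and 12.58 on 20%. The diets were wholly apart in the fourth run, as 13.9% of all genes were in this direction, and overlapped in the second. The diet effect in the fourth run minus that in the second was 1.64 ± 0.34 (adjusted p = 0.00566), and 4.76% of all genes were called higher in this comparison, which was added after the values were seen. The same difference for Fah was -0.48 ± 0.15 (adjusted p = 0.0521), for Oat -1.23 ± 0.42 (adjusted p = 0.0828) and for Gldc -0.84 ± 0.38 (adjusted p = 0.204).

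**Figure D3:**
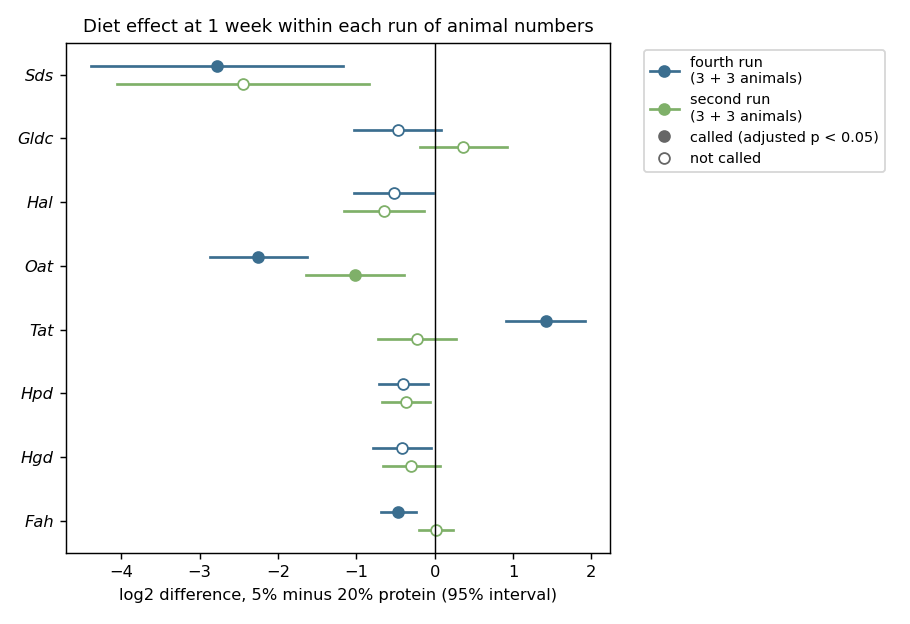
Difference of 5% minus 20% protein at 1 week on the log2 scale, with 95% intervals, for each enzyme within the fourth and the second run of animal numbers (3 rats per diet in each). Filled points are called; Tat lies at 1.42 in the fourth run and at -0.22 in the second, and Oat is called in both.

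Among the 20% protein rats at 1 week, 4 of the 8 genes were called between the fourth and the second run, against 10.8% of all genes. This comparison of runs was not among the diet and time comparisons planned. Oat was at 11.19, 10.31 and 10.74 in the fourth run, against 9.20, 8.53 and 9.62 in the second, which made it higher by 1.63 ± 0.30 (adjusted p = 0.00144). Gldc was at 9.97, 9.48 and 10.05 in the fourth run, against 8.91, 8.70 and 8.54 in the second, higher by 1.12 ± 0.27 (adjusted p = 0.00941). Fah was at 11.75, 11.53 and 11.66 in the fourth run, against 11.28, 11.20 and 11.16 in the second, higher by 0.43 ± 0.10 (adjusted p = 0.0101). For Oat, Gldc and Fah every fourth-run rat was above every second-run rat, as was so for 12.1% of all genes. Tat was lower in the fourth run, at -0.76 ± 0.24 (adjusted p = 0.0475), a call lost in 17 of 24 fits that left out 1 animal (adjusted p up to 0.22). The call of Fah was lost without animal 77 (adjusted p = 0.0552).

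On 5% protein at 1 week limma called 0 of the 8 between the runs, with 1 at an unadjusted p below 0.05 (0.783% of all genes called). That was Tat, at 0.88 ± 0.24 (adjusted p = 0.0917). At 4 weeks, Sds, Hal, Oat and Hgd fell within both runs (7.54% of all genes called lower in the first run and 5.49% in the third). Hpd was not called in either run alone, at -0.43 ± 0.15 (adjusted p = 0.0574) in the first and -0.34 ± 0.20 (adjusted p = 0.335) in the third. Fah was at -0.16 ± 0.11 in the first run and -0.55 ± 0.14 in the third, where it was called. The 20% rats at 4 weeks had Fah at 11.19 and 11.35 in the first run and at 11.62 to 11.71 in the third. Only 1 rat on 5% protein was in the third run, and the model assumes that it varies like the rest. At 1 week no row of the positions read as wells from the codes in the titles held both diets, so row and diet cannot be told apart there.

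The other genes of these routes were described from lists of 39 genes, of which 32 were measured. These lists were chosen with earlier results of these data known, so their counts beside all genes are descriptions. At 4 weeks 13 of the 32 fell, 6 rose and 13 were not called, where 12.4% of all genes were called lower and 13.4% higher. At 1 week 1 fell, 3 rose and 28 were not called, where 2.44% of all genes were called lower and 1.86% higher. The median difference was -0.22 at 4 weeks and -0.02 at 1 week.

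In the serine and glycine route at 4 weeks, 4 of 14 genes fell and 1 rose (median -0.22). Gnmt, which methylates glycine with S-adenosylmethionine as donor, ranged from 8.83 to 10.83 (median 9.92) on 5% protein, against 11.10 to 12.00 (median 11.69) on 20%. It fell by 1.84 ± 0.28 (adjusted p = 2.53e-05) with no overlap. Sdsl, a relative of serine dehydratase, fell by 0.75 ± 0.10 (adjusted p = 8.61e-06). Its 5% values (5.75 to 6.26) lie near the array medians, so this size cannot be bounded. Shmt1, the cytosolic serine hydroxymethyltransferase, was called at -0.39 ± 0.13, and Grhpr, glyoxylate and hydroxypyruvate reductase, at -0.35 ± 0.08. Srr, serine racemase, rose by 0.78 ± 0.19 (adjusted p = 0.00358). Gcsh, Amt and Dld, the partners of Gldc in glycine cleavage, were not called at either time. Grhpr was the single gene of the 32 to fall at 1 week (-0.34 ± 0.08, adjusted p = 0.0188).

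All 4 measured genes of the histidine route were called at 4 weeks, 2 lower and 2 higher (median -0.21), where 25.8% of all genes were called either way. Amdhd1, imidazolonepropionase, which follows urocanase, ranged from 8.35 to 9.95 (median 9.19) on 5% protein, against 10.55 to 11.12 (median 10.73) on 20%. It was called lower, at -1.50 ± 0.21 (adjusted p = 1.07e-05), and Ftcd, which passes the formimino group to folate, fell by 0.92 ± 0.21 (adjusted p = 0.00201). Hdc, which turns histidine into histamine instead of breaking it down, ranged from 7.95 to 9.63 (median 8.85) on 5% protein, against 5.28 to 6.60 (median 5.55) on 20%. It rose by 3.06 ± 0.36 (adjusted p = 9.28e-07), a size that cannot be bounded because the 20% values lie near the array medians. Mthfd1, a folate enzyme, rose by 0.50 ± 0.11. None of these 4 was called at 1 week, where Amdhd1 was at 0.06 ± 0.21 and Hdc at 0.39 ± 0.36. The diet effect was called different between the times for Amdhd1 (-1.56), Ftcd (-1.12) and Hdc (2.67). In that comparison 2.2% of all genes were called lower and 3.54% higher.

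Of 5 genes measured around the supply and first steps of tyrosine breakdown, 2 fell at 4 weeks (median -0.06). Qdpr, which regenerates the tetrahydrobiopterin used by phenylalanine hydroxylase, fell by 0.52 ± 0.10 (adjusted p = 0.000567). Gchfr, the feedback regulator of the enzyme that starts tetrahydrobiopterin synthesis, fell by 0.89 ± 0.18 (adjusted p = 0.000493). Gch1, that enzyme, was at 0.18 ± 0.11 at 4 weeks and rose at 1 week by 0.42 ± 0.11 (adjusted p = 0.0374). Phenylalanine hydroxylase itself was not analysed here.

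In the ornithine, proline and glutamate route 5 of 9 genes fell at 4 weeks and 3 rose (median -0.99). Prodh and Prodh2, which oxidise proline and hydroxyproline, were called at -1.18 ± 0.24 and -1.37 ± 0.19. Gls2, the liver glutaminase, fell by 1.43 ± 0.21. Arg1, which releases ornithine from arginine, fell by 1.24 ± 0.26, and Otc, which condenses ornithine with carbamoyl phosphate, fell by 0.99 ± 0.15. The genes that rose lie on the synthetic side.

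Pycr1, which makes proline, ranged from 7.98 to 9.07 (median 8.72) on 5% protein for 4 weeks, against 5.37 to 6.07 (median 5.88) on 20%, and rose by 2.92 ± 0.23 (adjusted p = 1.55e-09). Aldh18a1, which starts proline and ornithine synthesis from glutamate, ranged from 8.31 to 9.06 (median 8.94) on 5% protein, against 5.64 to 6.32 (median 5.96) on 20%, and rose by 2.88 ± 0.20 (adjusted p = 6.18e-10). Both genes were near the array medians on 20% protein, so these sizes cannot be bounded either. Odc1, which starts polyamine synthesis from ornithine, rose by 0.81 ± 0.23. Pycr1 (1.28 ± 0.23) and Aldh18a1 (1.68 ± 0.20) had already risen at 1 week, the time at which Prodh (-0.02), Prodh2 (-0.30), Gls2 (-0.31), Arg1 (-0.09) and Otc (-0.16) were not called. The diet effect was called different between the times for Pycr1, Aldh18a1, Prodh, Prodh2, Gls2 and Otc, and not for Arg1 (adjusted p = 0.0636). Of all genes, 2.2% were called lower and 3.54% higher in that comparison.

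**Figure D4:**
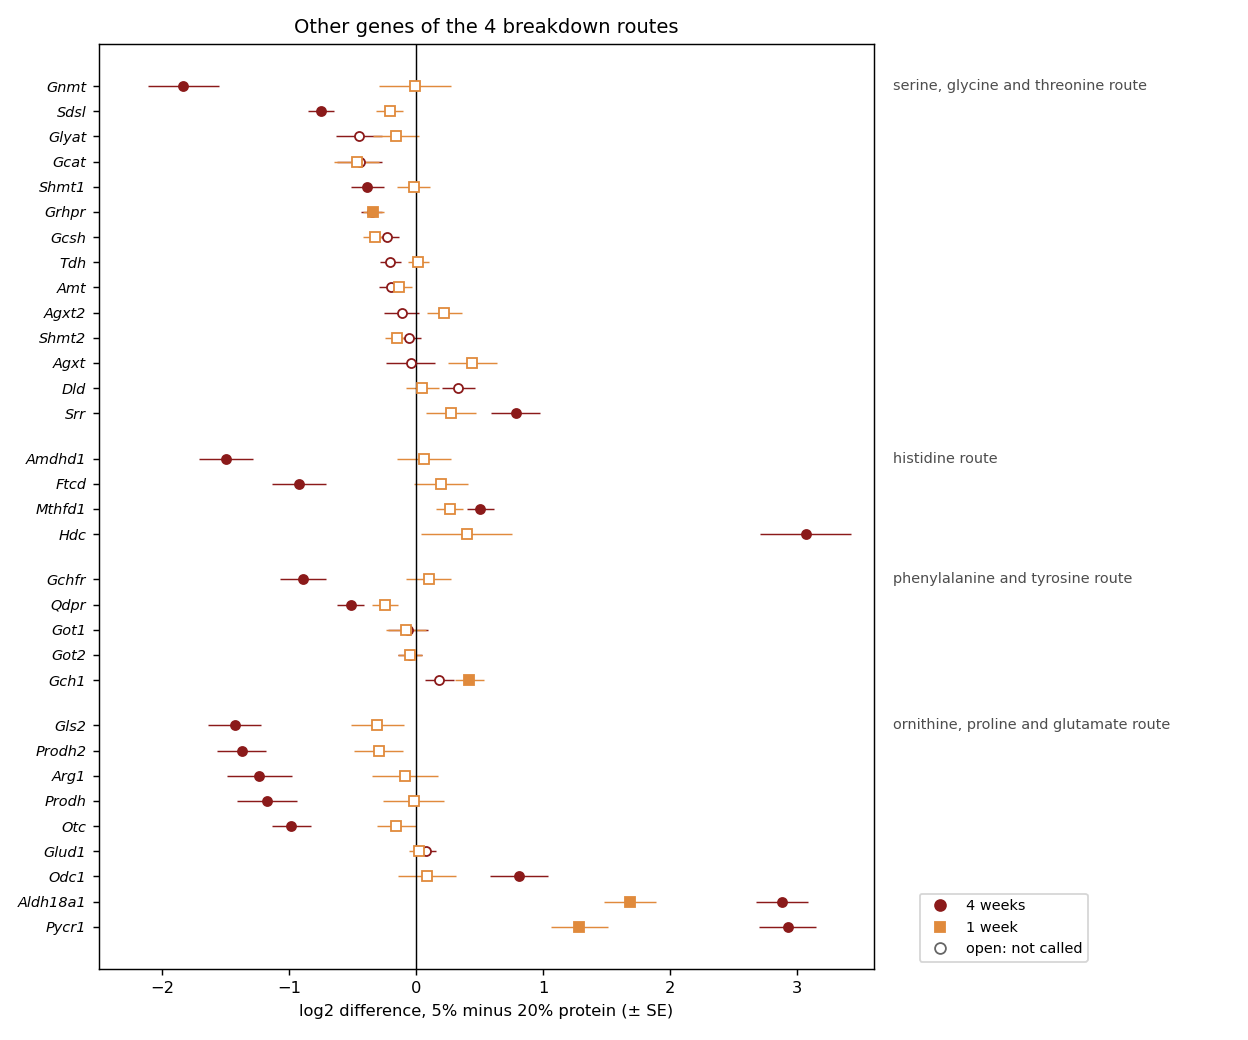
Difference of 5% minus 20% protein on the log2 scale (± SE) for the 32 other measured genes of the 4 routes at 4 weeks (circles) and 1 week (squares). Filled symbols are called; Hdc, Pycr1 and Aldh18a1 lie furthest right at 4 weeks, and Gnmt and Amdhd1 furthest left.

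Among 11 measured regulators known to act on such genes, 5 fell and 3 rose at 4 weeks (median -0.30), where 12.4% of all genes were called lower and 13.4% higher. Gcgr, the glucagon receptor, fell by 0.73 ± 0.12 and Nr3c1, the glucocorticoid receptor, fell by 0.64 ± 0.11. The transcription factors Klf15 (-0.79 ± 0.26), Cebpa (-0.65 ± 0.10) and Creb1 (-0.33 ± 0.09) fell as well. Ppargc1a, a coactivator of the fasting response, rose by 1.56 ± 0.28, and Atf4 and Ddit3, factors of the amino acid and stress response, rose by 0.76 ± 0.11 and 1.36 ± 0.20. Atf4 (0.51 ± 0.11) and Ddit3 (0.97 ± 0.20) were also the 2 called at 1 week, both higher (1.86% of all genes).

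Some marker genes of cell types and zones were called with diet at 4 weeks, where 12.4% of all genes were called lower and 13.4% higher. Their part in the results above was not tested. Of 10 periportal markers other than the 8 enzymes, 5 fell and 1 rose (median -0.55), and their summed intensity, which the brightest probes carry, was 19632 to 32957 on 5% protein, against 33232 to 43636 on 20%. Arg1 and Gls2 are in this list as well. Of 9 pericentral markers other than Oat, 2 fell and 1 rose (median -0.03), with sums of 15113 to 21697 on 5% and 17182 to 26793 on 20%. Of 7 general hepatocyte markers, 3 fell (differences of -0.39 to -0.09), with sums of 56381 to 69886 on 5% and 64234 to 74984 on 20%.

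Of the other cell types, Kupffer cell markers fell for 7 of 8 genes at 4 weeks, where 12.4% of all genes were called lower and 13.4% higher. Their sums were 3329 to 4189 on 5% protein and 4918 to 8241 on 20%. Stellate cell markers fell for 2 of 6 (1524 to 1849 on 5%, 2185 to 3603 on 20%), endothelial markers for 1 of 3 (1812 to 2220 on 5%, 2150 to 2796 on 20%) and erythroid markers for 1 of 4 (141 to 738 on 5%, 309 to 1562 on 20%). Cholangiocyte markers rose for 2 of 4 (269 to 659 on 5%, 227 to 342 on 20%), and limma called 0 of 4 lymphocyte markers (134 to 236 on 5%, 154 to 340 on 20%). No marker was at 0, but the lowest intensity of any probe set was 3.27, so this says nothing of detection. At 1 week erythroid markers fell for 3 of 4 genes (182 to 961 on 5%, 716 to 2364 on 20%), where 2.44% of all genes were called lower and 1.86% higher. At that time 0 of 7 general hepatocyte and 0 of 8 Kupffer cell markers were called.

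Each enzyme was set against all other genes by the correlation of its deviations from the group means over the 24 rats. These deviations hold the differences between runs as well, so the values are descriptions. They also hold single outlying animals, such as animal 23 for Hpd and animal 63 for Gldc, which can carry much of a correlation. The 2 most alike were Cdk17 (r = 0.80) and Ak3 (0.80) for Sds, and Ndufs1 (0.83) and Tars2 (0.80) for Gldc. For Hal they were Cenpc (0.76) and Amdhd1 (0.69), which encodes the enzyme that acts after urocanase in the same route. For Oat they were Atp5f1c (0.83) and Ctsd (0.82), and for Tat, Tle4 (0.76) and Tspan5 (0.72). In the later tyrosine route they were Adh1c (0.87) and Cyp1a2 (0.86) for Hpd, Mindy3 (0.87) and Inhba (0.81) for Hgd, and Adk (0.91) and Mtch2 (0.91) for Fah. Among the enzymes themselves the highest correlation was that of Oat with Fah (0.72), and Hpd and Hgd, neighbours in their route, were at -0.35. Animal 23 on 5% protein for 4 weeks had both the lowest Hpd (12.06) and the highest Hgd (11.53) of its group. The correlation of Hpd with Hgd without that animal was not computed.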

How the data were processed

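Liver RNA of 24 rats was hybridised to Affymetrix whole-transcript arrays. The authors' deposited values are RMA intensity per probe set on the unlogged scale, per the labels; the submitters' processing notes name RMA with no version and no filter. Values lay between 3.27 and 15793. Of 29214 probe sets, 18644 had 1 symbol, 962 several and 9608 none in the array's annotation. Only the first kind was used, and where a gene had several, the one with the highest mean was kept (17245 genes). All 8 measured members kept their symbol when looked up by Entrez identifier in RefSeq. The files name no genome build, so gene positions are not given apart from RefSeq's start regions.

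Log2 intensity was fitted with limma 3.58.1 (lmFit, eBayes; R 4.3.3, data.table, version 1.17.8) as 4 group means, on 20 residual and 3.95 prior degrees of freedom. Tests were two-sided, with Benjamini-Hochberg adjustment over all 17245 genes and a threshold of 0.05. The median SE of a diet difference was 0.10. Runs were compared in a model with a mean for every run within a group (16 residual degrees of freedom). Precision is limited by the number of arrays. The labels do not say how animals were housed or chosen. The p-values set each difference against the spread between these animals, which in the fit of 4 group means also holds differences between runs.

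All members were named. Other route genes were named where called at 4 weeks, regulators by list, and marker genes by counts; the genes called at 1 week, Gldc's partners and phenylalanine hydroxylase were named besides. Members and lists were chosen with earlier results of these data known. The alternatives were quantile normalisation, centred medians, an offset of 16, other choices of probe set and a filter on the lowest 33.3% of genes. Further ones were another variance model, fewer groups, well column, well row and run as terms, each run on its own, and each animal left out. Wells were read from the codes in the titles, and the labels do not name them as such.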

Additional observations from a re-analysis of the deposited data

Results flagged for a closer look

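In rats on 5% protein for 4 weeks, Hpd stood at 12.06 in animal 23, with the other 5 animals no lower than 12.76. In rats on 20% protein for 4 weeks, Gldc stood at 8.29 in animal 63, with the others no lower than 9.39. Each lay farther from its group than Dixon's 95% critical value for 6 samples allows. Of 32 groups tested 2 were marked, and chance marks about 1 in 20. Without animal 23 the fall of Hpd at 4 weeks was -0.35, and without animal 63 the difference of Gldc at 4 weeks was -0.10.

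The diet effect on Hal differed between 4 weeks and 1 week by -1.05 (adjusted p = 0.0125), with a larger fall at 4 weeks. The diet effect on Tat at 1 week differed between the fourth and the second run of animal numbers by 1.64 (adjusted p = 0.00566), higher on 5% protein in the fourth run and not called in the second. That comparison of runs was added after the values were seen, so its p is not that of a planned test.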

How the results depend on the processing

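No paired analysis was possible because each animal number stands in a single group. The falls of Sds, Hal, Oat and Hgd at 4 weeks and of Oat at 1 week were called under all 13 alternatives other than leaving out animals. Each member had 1 probe set, so the other choices of probe set left its values unchanged, as did the filter on low genes. Those alternatives could alter only the SE and the adjusted p. The cause of the changes below was not tested. Of the 8 genes, 2 were called lower at 1 week with quantile normalisation or well row as a random block and 1 in the second run, while 1 was called higher in the fourth run; at 4 weeks 1 was called higher when only the groups compared were fitted. On 5% protein between the times, 2 were called lower without the lowest genes and 0 with the run as a covariate. On 20% protein 1 was called higher with centred medians or without the lowest genes. For diet by run 1 was called lower with the offset or without the lowest genes, and for the run effect on 20% protein 0 with the offset.

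Over all genes tested, the shares called lower and higher at 1 week were 4.71% and 2.86% in the second run, 4.45% and 4.04% in the fourth, and 0.974% each with well row as a block, against 2.44% and 1.86% in the full fit. At 4 weeks they were 7.54% and 8.32% within the first run, against 5.49% and 6.83% within the third and 12.4% and 13.4% in the full fit. For diet by time they were 1.01% and 1.8% with the run as a covariate, against 2.2% and 3.54%. For time on 20% protein 1.98% were higher with centred medians and 0.678% with only the groups compared, and well row as a block gave 0.702% lower and 0.47% higher, against 1.5% and 1.02%. Leaving out the lowest genes, which leaves fewer genes tested, gave 4.19% lower and 3.01% higher at 1 week, 3.83% and 6.52% for diet by time, 6.99% and 6.85% for time on 5%, 2.55% lower for time on 20%, 4.45% and 8.19% for diet by run, and 10.8% and 6.94% for the run effect.

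Signs turned as follows. Time on 5% protein gave Hpd 0.0495 (quantile normalisation), 0.0065 (centred medians), 0.034 (run) and 0.0126 (well row), and Sds 0.129 (run). With quantile normalisation Hpd gave 0.0804 for diet by run and -0.0158 for the run effect on 20% protein. Diet by time gave Tat 0.001 with the run as a covariate. At 1 week the second run gave Tat -0.224, Fah 0.0195 and Gldc 0.367, and at 4 weeks the first run gave Gldc -0.0124. None of these was called.

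With single animals left out, members called lower numbered 2 to 5 at 1 week (2 without animal 51, 53, 74, 76, 77 or 79). At 4 weeks they numbered 6 throughout. They numbered 1 to 2 for diet by time, 0 to 2 for time on 5% protein, 0 to 1 for diet by run and 0 to 1 for the run effect on 20% protein. For time on 20% protein 0 to 1 were higher. All genes called lower and higher ranged over 1.19% to 2.6% lower at 1 week (lowest without animal 74), 1.27% to 3.01% and 2.09% to 5.16% for diet by time (lowest without animal 32), 2.24% to 4.37% and 2.34% to 5.22% for time on 5% (animal 32), 0.876% to 1.96% and 0.655% to 1.33% for time on 20% (animal 67), 1.39% to 3.32% and 2.66% to 5.43% for diet by run (animals 76 and 50), and 4.0% to 7.03% and 2.49% to 4.78% for the run effect (animals 51 and 52). Single omissions also added calls: Hgd at 1 week (animal 32), Hgd (22) and Oat (29 or 77) for diet by time, Hal (22, 26 or 53) and Oat (52, 59 or 77) for time on 5%, Hal (22, 32 or 53) for time on 20%, and Fah (22, 23, 26, 32 or 78), Oat (49 or 53) and Gldc (63) for diet by run, with adjusted p from 0.0105 to 0.04996. Values that changed sign were those of Gldc (-0.201 to 0.101 at 1 week, -0.0985 to 0.203 at 4 weeks, -0.0448 to 0.322 for diet by time, -0.0382 to 0.328 for time on 20%), Tat (-0.30 to 0.0195 for diet by time), Hpd (-0.134 to 0.035 for diet by time, -0.0589 to 0.11 for time on 5%, -0.138 to 0.0416 for diet by run), Sds (-0.167 to 0.0166 for time on 5%, -0.788 to 0.0545 for diet by run, -0.538 to 0.304 for the run effect) and Hal (-0.186 to 0.369 for diet by run, -0.305 to 0.25 for the run effect). With no detection call, signal over background limits what can be said of every low value. These include Sds on 5% protein and in 1 animal on 20%, Sdsl on 5% protein, Hdc, Pycr1 and Aldh18a1 on 20% protein, and Tdh throughout.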

Other observations

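The probe set shared by Uroc1 and Zxdc (10857231) belongs to no single gene and was left out of the comparisons. Its log2 RMA intensity ranged from 7.34 to 9.36 (median 8.91) on 5% protein for 4 weeks, against 9.56 to 10.26 (median 10.03) on 20%. At 1 week it ranged from 9.17 to 9.62 (median 9.46) on 5% protein, against 9.19 to 10.004 (median 9.63) on 20%. The diets did not overlap at 4 weeks and overlapped at 1 week. Which of the 2 genes gave these values was not tested.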
